A study of Mus musculus with 2 samples.

Results

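Otx1, Otx2, Dmbx1, Pax3, Pax7, Meis1, Meis2, Tfap2b and Tfap2d are 9 transcription factor genes known from the dorsal midbrain, and they are described here across the midbrain of 2 mouse embryos. They were chosen by name, as members of the Otx, Pax3/7, Meis and AP-2 families plus Dmbx1, and all 9 were found among the 43346 Ensembl genes of the deposited tables. The libraries are total RNA sequencing of whole midbrain at 14.5 days of embryonic development in the strain B6NCrl, with no treatment or genetic change named in the labels. Each library came from 1 pup, per the labels, and the pups were collected on different days; the libraries are biological replicates of 1 group and are called embryo 1 and embryo 2. The labels also give a pooled sex, which does not go with a library from 1 pup. With 1 group there is no contrast, so levels, isoform shares and the spread between the embryos are given as descriptions, and no p-value is reported.

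Otx2, with its relative Otx1, gives the anterior neural tube its forebrain and midbrain identity and sets the border with the hindbrain. Pax3 and Pax7 are expressed in the dorsal neural tube and in the tectum, the roof of the midbrain that forms the superior and inferior colliculi. Meis proteins bind DNA together with Pbx proteins, and in the chick tectum Meis2 is known to compete with the corepressor Tle4 for binding to Otx2. Tfap2b and Tfap2d belong to the AP-2 family of transcription factors, and Tfap2d is known from the developing midbrain roof.

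Otx1, Otx2 and Dmbx1 share the homeobox, the stretch of coding sequence for the DNA-binding homeodomain. It is printed to show how far members of a family differ over their most conserved stretch. Each is the 180-base homeobox on the minus strand, 5′ to 3′, joined from 2 exons of the mm10 assembly. Capitals mark bases that differ from Otx2, at chr14:48659285-48661436; Otx1 lies at chr11:21997017-21998507 and Dmbx1 at chr4:115920275-115920670.
Otx2: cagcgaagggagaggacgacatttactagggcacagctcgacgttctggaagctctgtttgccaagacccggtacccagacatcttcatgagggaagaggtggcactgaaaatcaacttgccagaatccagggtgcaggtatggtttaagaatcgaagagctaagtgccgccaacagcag
Otx1: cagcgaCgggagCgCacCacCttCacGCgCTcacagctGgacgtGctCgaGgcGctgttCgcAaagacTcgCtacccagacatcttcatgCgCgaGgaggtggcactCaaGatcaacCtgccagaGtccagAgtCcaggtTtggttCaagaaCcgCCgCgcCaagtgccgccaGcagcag
Dmbx1: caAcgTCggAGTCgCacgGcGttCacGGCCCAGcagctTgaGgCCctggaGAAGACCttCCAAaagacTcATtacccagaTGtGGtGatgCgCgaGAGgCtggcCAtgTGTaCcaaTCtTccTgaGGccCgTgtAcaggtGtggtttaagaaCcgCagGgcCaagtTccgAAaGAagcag
Otx1 differed from Otx2 at 36 bases and was 80.0% identical, with no identical run longer than 18 bases. Dmbx1, a homeobox gene first described in the diencephalon and midbrain, differed from Otx2 at 72 bases and was 60.0% identical. Over whole annotated transcripts, the longest run of bases shared exactly was 18 between Otx1 and Otx2, 26 between Pax3 and Pax7, 32 between Meis1 and Meis2 and 14 between Tfap2b and Tfap2d. Every one of these runs was shorter than 100 bases, the single length that the deposited effective lengths of all transcripts over 300 bases imply. That value has no spread, so it is not taken as a measured fragment length of the libraries.

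Several members differed in a short segment at the start of an exon, where an upstream acceptor site lengthens the exon by whole codons. These segments are shown because the isoform shares given further on turn on them. Capitals mark the added segment, and lower case gives 27 coding bases on each side. All are on the minus strand of mm10, printed 5′ to 3′, at chr14:48661451-48661474 for Otx2, chr2:115867359-115867379 for Meis2, chr4:115920712-115920726 for Dmbx1 and chr4:139828705-139828710 for Pax7.
Otx2, 24 bases: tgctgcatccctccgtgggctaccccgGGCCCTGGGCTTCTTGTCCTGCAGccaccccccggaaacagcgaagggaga
Meis2, 21 bases: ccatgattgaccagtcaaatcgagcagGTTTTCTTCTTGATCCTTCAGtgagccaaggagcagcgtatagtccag
Dmbx1, 15 bases: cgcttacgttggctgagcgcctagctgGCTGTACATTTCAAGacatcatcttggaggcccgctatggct
Pax7, 6 bases: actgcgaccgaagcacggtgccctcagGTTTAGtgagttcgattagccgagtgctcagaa
The segments add 8 codons to Otx2, 7 to Meis2, 5 to Dmbx1 and 2 to Pax7.

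The libraries held 32716141 expected counts in embryo 1 and 30185472 in embryo 2, spike-ins included. All 5 genes listed for the midbrain (En1, En2, Cnpy1, Th and Gata3) were present at a TPM (transcripts per 1e6 transcripts, a level scaled by gene length and depth) of at least 1 in both embryos. Of 8 forebrain genes only Emx2 reached that level, at 15.5 and 14.6 TPM. The embryos differed in markers of other tissues: 9 of 9 meningeal and mesenchymal markers were higher in embryo 1, with a summed level of 400.19 TPM against 9.18. The 7 choroid plexus markers were all higher in embryo 1 and summed to 107.6 and 7.12 TPM, mostly through Ttr (96.31 and 0.37). Folr1, the only choroid plexus marker at 1 TPM or more in both embryos, stood at 6.24 and 5.22 TPM. The 5 endothelial markers summed to 124.27 and 81.93 TPM, the 5 microglial ones to 44.75 and 21.07 and the 5 erythroid ones to 2578.32 and 1610.9. The 5 cycling-cell markers were all higher in embryo 1 and summed to 299.9 against 185.85 TPM. The 4 progenitor markers were split, with Vim (501.61 and 346.18 TPM) and Nes (22.1 and 14.3) higher in embryo 1 and Fabp7 (1214.29 and 1510.67) and Sox2 (11.87 and 15.66) higher in embryo 2. The 5 young-neuron markers summed to 4034.7 and 4428.33 TPM and were split as well. Dcx (295.79 and 175.54 TPM) and Tubb3 (1638.45 and 1586.41) were higher in embryo 1 by TPM. Stmn2 (858.42 and 1178.14), Gap43 (1149.93 and 1376.07) and Elavl3 (92.11 and 112.17) were higher in embryo 2.

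All 9 factors were detected, that is, reached 1 TPM in both embryos, against 33.6% of all Ensembl genes and 59.5% of protein-coding genes. Their levels spanned 28.8-fold and kept the same order in both embryos. From highest to lowest, this order was Tfap2b, Otx2, Meis2, Tfap2d, Meis1, Pax3, Otx1, Pax7 and Dmbx1. Tfap2b stood above 96.6% of protein-coding genes by mean TPM and Dmbx1 above 53.8%. No neighbours in the order had overlapping ranges over the embryos, but the gap between the means of Otx1 and Pax7, 2.75 TPM, was smaller than the SD of Otx1. In embryo 2 the 95% counting intervals of the TPM of Otx1 (7.06 to 8.55), Pax7 (6.72 to 7.74) and Dmbx1 (6.09 to 7.27) overlapped, so their order there was within counting error. In embryo 1 those of Pax7 (6.76 to 7.81) and Dmbx1 (6.02 to 7.20) overlapped as well.

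**Figure D1:**
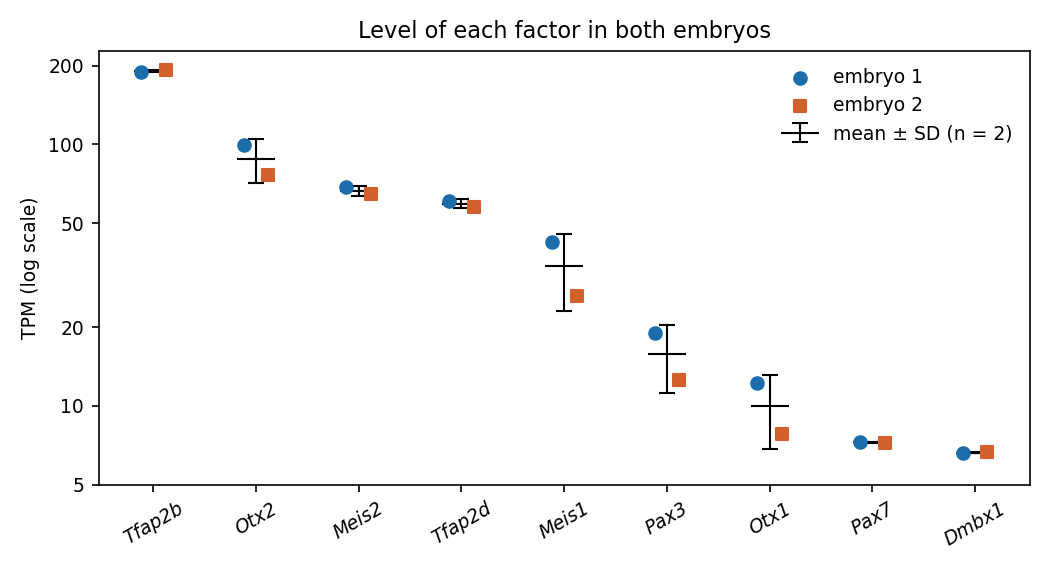
Deposited TPM (log scale) of each of the 9 factors, with 1 point for each embryo and a bar at the mean with whiskers of 1 SD (n = 2), ordered from the highest mean to the lowest. Tfap2b sits near 190.8 TPM and Dmbx1 near 6.63, and the points lie farthest apart for Otx1, Meis1 and Pax3.

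Otx2 was the most abundant homeobox gene of the group. It was measured at 99.9 TPM in embryo 1 and 76.3 TPM in embryo 2 (88.1 ± 16.7, SD, n = 2), from 3382 and 2612 counts. Its locus (ENSMUSG00000021848.11) is chr14:48657677-48673819 on the minus strand. Embryo 1 was the higher, by 1.17-fold (95% counting interval 1.11 to 1.23) in counts scaled by TMM, edgeR's correction for library composition. Differences at least as large on the log2 scale were found in 51.1% of genes with at least 100 counts. Otx1 (ENSMUSG00000005917.11, chr11:21994764-22002897, minus strand), which is known from the developing forebrain and midbrain, was measured at 12.2 and 7.78 TPM (9.99 ± 3.13, SD, n = 2). The level of Otx2 was thus 8.19 times that of Otx1 in embryo 1 and 9.81 times in embryo 2. Otx1 was 1.36-fold higher in embryo 1 (1.20 to 1.54), and 23.2% of genes differed by at least as much.

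Dmbx1 (ENSMUSG00000028707.11, chr4:115915119-115939926, minus strand) was measured at 6.59 and 6.66 TPM (6.63 ± 0.0495, SD, n = 2), from 495 and 499 counts. Its scaled counts had a ratio of 0.895, embryo 1 over embryo 2 (0.789 to 1.02), an interval that holds equality. Otx2 exceeded it 15.2-fold in embryo 1 and 11.5-fold in embryo 2 on the TPM scale.

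Pax3 and Pax7 differed in how much they varied. Pax3 (ENSMUSG00000004872.11, chr1:78101267-78197134, minus strand) was measured at 19.1 and 12.6 TPM (15.8 ± 4.60, SD, n = 2), and Pax7 (ENSMUSG00000028736.9, chr4:139737062-139833528, minus strand) at 7.27 and 7.22 TPM (7.25 ± 0.0354, SD, n = 2). Pax3 was thus the more abundant in each embryo, 2.62 times the level of Pax7 in embryo 1 and 1.74 times in embryo 2. In scaled counts Pax3 was 1.37-fold higher in embryo 1 (1.25 to 1.49) and Pax7 was 1.16-fold higher in embryo 2, although the ratio of Pax7 TPM was near equality at a log2 of 0.01. The mean transcript length estimated for Pax7, by which TPM divides the counts, was 5526 bases in embryo 1 and 5818 in embryo 2.

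Pax3 and Pax7 also mark cells outside the brain, Pax3 the neural crest and both of them muscle precursors. Of 7 skeletal muscle precursor genes none was detected at 1 TPM, and the list summed to 2.04 TPM in embryo 1 and 1.79 in embryo 2. Myf5, the early myogenic factor, had 1 count in each embryo. The 6 genes of neural crest and glial precursors summed to 9.52 and 8.86 TPM, and Foxd3, an early crest gene, stood at 0.12 TPM in both embryos.

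Meis2 (ENSMUSG00000027210.16, chr2:115863064-116065839, minus strand) was the higher of the Meis members, at 68.7 and 64.6 TPM (66.6 ± 2.91, SD, n = 2). Its scaled counts had a ratio of 1.00 (0.957 to 1.05), and 99.3% of genes differed by at least as much. Meis1 (ENSMUSG00000020160.14, chr11:18879817-19018985, minus strand) was measured at 42.3 and 26.4 TPM (34.3 ± 11.2, SD, n = 2) and differed the most of the 9 between the embryos, by 1.44-fold (1.35 to 1.54), with 17.2% of genes at least as far apart. The level of Meis2 was therefore 1.62 times that of Meis1 in embryo 1 and 2.45 times in embryo 2. Meis1 and Otx1 lie 2.98 Mb apart on chromosome 11, with 51 annotated genes between them.

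Tfap2b (ENSMUSG00000025927.9) was the most abundant factor, at 189.4 and 192.2 TPM (190.8 ± 1.97, SD, n = 2), from 11317 and 11101 counts. Tfap2d (ENSMUSG00000042596.7), its paralog, was measured at 60.95 and 57.74 TPM (59.3 ± 2.27, SD, n = 2). These genes are neighbours on the plus strand of chromosome 1, Tfap2d at chr1:19103022-19166346 and Tfap2b at chr1:19208914-19238576, with 42.57 kb and no annotated gene between them. Tfap2b had 3.11 times the TPM of Tfap2d in embryo 1 and 3.33 times in embryo 2, and their summed level was 250.33 and 249.91 TPM. In scaled counts the ratio of Tfap2b was 0.920 (0.896 to 0.945) and that of Tfap2d 0.943 (0.883 to 1.01), embryo 1 over embryo 2.

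Between the embryos none of the 9 differed by 1.5-fold or more in TMM-scaled counts, where 14.2% of 14011 genes did, and none by 2-fold, where 4.78% did (3.35% in favour of embryo 1 and 1.43% in favour of embryo 2). The factors split into 5 that were higher in embryo 1 and 4 that were higher in embryo 2, and 49.4% of all genes were higher in embryo 1. Counting intervals lay above equality for Otx1, Otx2, Pax3 and Meis1, below it for Pax7 and Tfap2b, and held it for Meis2, Tfap2d and Dmbx1. Otx1, Pax3 and Meis1 were at least 1.3-fold higher in embryo 1, which 16.1% of genes were. These intervals cover counting error only, and 2 embryos give no estimate of how far such differences vary between animals. The markers of meninges, choroid plexus, blood, microglia and cycling cells were higher in the same embryo as Otx1, Otx2, Pax3 and Meis1. Their part in these differences was not tested. In bulk tissue fewer cells of a type and less RNA per cell cannot be told apart.

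The ratio depended on the scaling for genes near the threshold. By the ratio of deposited TPM, Otx1 (log2 0.65), Pax3 (0.60) and Meis1 (0.68) passed 1.5-fold in favour of embryo 1, where 13.3% of genes did and 16.6% passed in either direction. None passed 2-fold by that ratio, where 5.5% of genes did. Scaled by the ERCC spike-ins, Meis1 alone passed, at a log2 of 0.64, where 11.8% of genes did. With DESeq2 size factors or total counts none passed, where 9.11% and 9.21% of genes did in favour of embryo 1. Both these scalings, TPM and spike-ins, scalings also moved the median of all genes, by a log2 of 0.13 for TPM and 0.11 for the spike-ins, and relative to that median 0 of the 9 passed 1.5-fold. Directions turned only for Pax7 under the TPM ratio (log2 0.01) and for Tfap2d under the spike-ins (0.03) and the TPM ratio (0.08). Relative to the median of all genes these values were −0.12, −0.08 and −0.05, so that relative to it no direction turned for these genes. Meis2, near equality with TMM (log2 0.0029), did turn relative to that median under the TPM ratio, at −0.04.

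**Figure D2:**
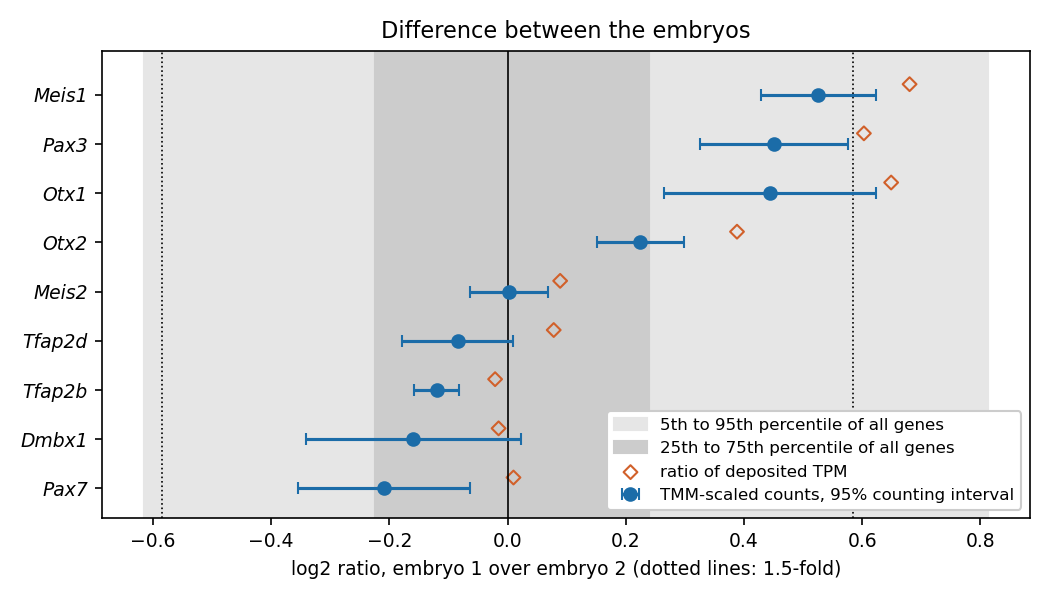
Log2 ratio of embryo 1 over embryo 2 for each factor, as TMM-scaled counts with the 95% counting interval (filled points) and as the ratio of deposited TPM (open diamonds). Shading gives the 25th to 75th and the 5th to 95th percentiles of all genes with at least 100 counts, and dotted lines mark 1.5-fold. All 9 filled points lie between the dotted lines, the diamonds of Otx1, Pax3 and Meis1 lie beyond the right one, and those of Pax7 and Tfap2d lie on the other side of zero from their filled points.

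Transcript estimates assign each gene's reads to its annotated isoforms, and the 9 genes had 54 deposited transcripts. The same transcript led in both embryos for 8 of the 9 genes, all but Meis2. Otx1-201 held 92.1% and 92.4% of the Otx1 TPM, Tfap2d-201 held 94.1% and 96.1% of the Tfap2d TPM, and Pax7-201 held 92.0% and 99.2% of the Pax7 TPM. Pax3-202 held 77.0% and 78.9% of the Pax3 TPM, and Dmbx1-203 held 74.1% and 100% of the Dmbx1 TPM. Otx2 and Tfap2b were spread over more isoforms. Otx2-201 held 55.6% and 58.0% of the Otx2 TPM and Otx2-202 held 25.2% and 24.6%. For Tfap2b, Tfap2b-204 held 34.6% and 35.6%, Tfap2b-201 held 28.3% and 26.0%, and Tfap2b-202 held 21.6% and 21.5%.

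Coding transcripts made up 57.2% of the Meis1 TPM in embryo 1 and 58.2% in embryo 2, the lowest shares among the 9. Meis1-201, a coding transcript, held 53.1% and 55.8%, and Meis1-203, annotated as a processed transcript without a reading frame, held 27.4% and 26.5%. For Tfap2b 15.5% and 16.9% of the TPM was in transcripts annotated with a retained intron. That share was 12.9% and 14.8% for Meis2, 11.1% and 11.9% for Meis1 and 5.08% and 7.57% for Otx1. Otx2, Pax3, Pax7, Tfap2d and Dmbx1 have no deposited transcript of that type, so no such share could be measured for them.

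The segments printed above were used to different degrees. The 24-base segment of Otx2 was in 25.2% of its TPM in embryo 1 and 24.6% in embryo 2, and the 21-base segment of Meis2 was in 43.6% in both embryos of the TPM that spans the site. These shares differed by less than 1 percentage point between the embryos. The 15-base segment of Dmbx1 was in 25.9% in embryo 1, from 128.88 counts assigned to Dmbx1-202, and is listed at 0 in embryo 2. The posterior mean estimates deposited beside the main ones gave 29.3% and 9.09%. The 6-base segment of Pax7 was in 7.97% and 0.832%, from 17.97 and 1.98 counts assigned to Pax7-202. Such counts are estimates of how shared reads divide, so these shares carry an error that the tables do not state.

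First exons separate the isoforms of 3 members. Of Otx2 TPM, 40.4% in embryo 1 and 37.9% in embryo 2 was in transcripts that start at the upstream first exon, 55.6% and 58.0% in the one that starts at the middle first exon, and 2.72% and 1.82% in the one at the downstream first exon. For Tfap2b the upstream first exon had 62.9% and 61.6% and the downstream one 30.5% and 34.6%. For Meis2 the upstream first exon had 63.6% and 59.5% and the downstream one 17.97% and 23.83%. The 95-base exon near the end of the Meis genes, at chr2:115866810-115866904 in Meis2 and chr11:18883988-18884082 in Meis1, was held in 64.2% and 65.8% of the Meis2 TPM that spans it and in 93.0% and 96.0% of that of Meis1.

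Meis2 was the exception in its leading transcript. Meis2-206 held 32.6% of its TPM in embryo 1 and 3.08% in embryo 2, while Meis2-205 held 1.78% and 28.7%. Meis2-201 held 28.6% and 2.40%, and Meis2-203 held 0.583% and 25.3%. These 4 transcripts share the upstream first exon and differ in how the 21-base segment is combined with the 95-base exon. The leading combinations in the main estimates thus differed between the embryos. The 21-base segment and the 95-base exon, each taken alone, differed by less than 2 percentage points. Shares of the combinations are estimates of how shared reads divide, with an error that the deposited values do not state. Whether the embryos differ in isoform use was not tested. The posterior mean estimates moved less, by at most 9.42 percentage points for any Meis2 transcript against 29.5 in the main ones.

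**Figure D3:**
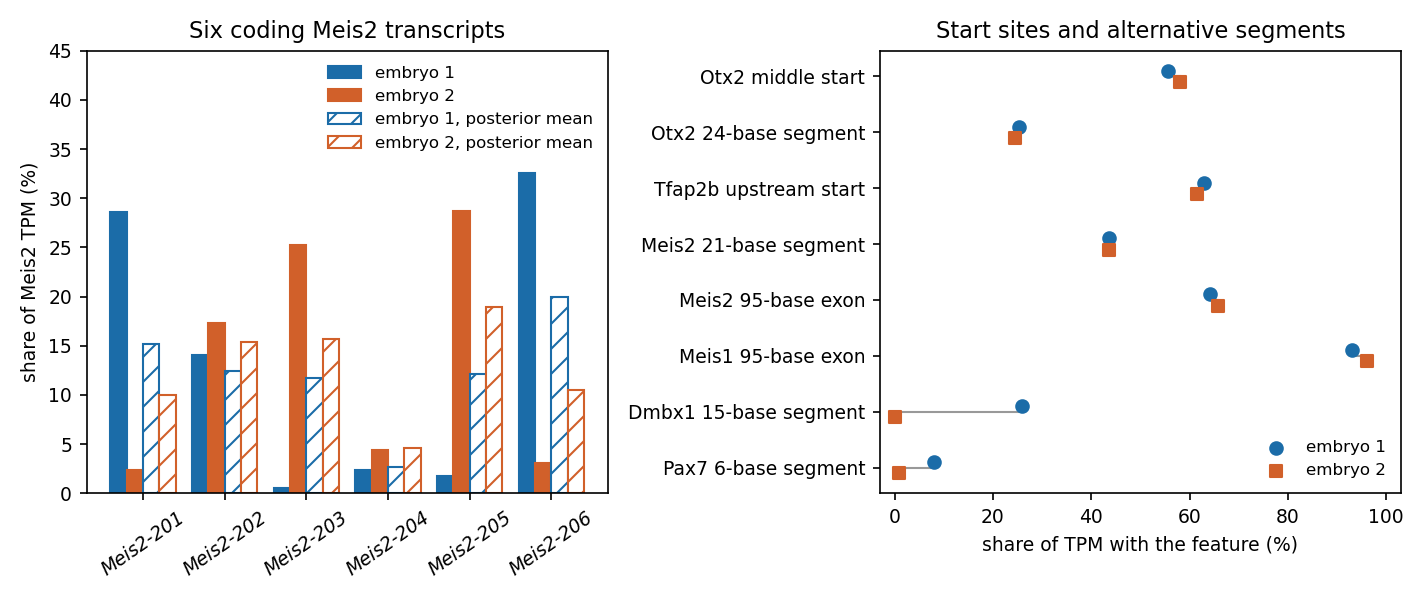
Left, share of the Meis2 TPM (%) held by each of its 6 coding transcripts in both embryos (filled bars, main estimates; hatched bars, posterior means); right, share of TPM (%) that holds each of 8 alternative segments, exons or start sites, chosen for display. On the left Meis2-206 stands at 32.6% in embryo 1 and 3.08% in embryo 2, and on the right the Dmbx1 segment, at 25.9% and 0, has the points that lie farthest apart.

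Overlapping genes limit some of these counts, since no source used here states whether strand was kept, and reads from opposite strands then cannot be told apart. Otx2os1, a long noncoding RNA on the strand opposite Otx2, had 7.10 and 8.14 TPM from 89 and 104 counts. Over Meis1 the antisense gene Gm16141 had 4.61 and 5.22 TPM and Gm16140 had 1.24 and 1.42. Other annotated genes overlap Meis1 on its own strand, where knowing the strand would not separate them. These were 2610001A08Rik (1.97 and 1.57 TPM), Gm37818 (0.69 and 0.58) and 2900018N21Rik (0.42 and 0.42). The antisense gene Gm15825 overlapping Tfap2d had 0.14 and 0.34 TPM, and the pseudogene Gm10075, also opposite Tfap2d, had 0.37 and 0.65.

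Promoter sequence was searched in the 250 bases before each transcription start, as RefSeq gives them on GRCm38.p6 (the mm10 assembly), where 7 of the 9 genes had entries. The bicoid-type site TAATCC, which Otx proteins are known to bind, was present on either strand in 6.25% of 32851 promoter windows and in 1 of the 12 windows of these 7 genes, a window of Otx2 itself. It is shown here on the minus strand at chr14:48665305-48665330, 206 bases before the middle start of Otx2, with the reverse complement of the site in capitals.
Otx2 upstream site: tgtgcccctcGGATTAtctcgttagt
The Meis-type site TGACAG was in 15.9% of promoters and the AP-2-type site GCCNNNGGC in 13.7%, and neither was in the 12 windows of these genes. TATAAA was in 12.4% of promoters and in 2 of the 12 windows, of Meis2 and Otx2. Meis2 and Tfap2b had windows only at their downstream first exons, so their upstream first exons, which held more of the TPM, were not searched. For Meis1, Pax7 and Dmbx1 the bases after the window were not found near the start of the leading transcript. Some windows of Otx2 and of Tfap2d overlap each other. An absent match therefore covers only the windows searched. A match of letters is a description and not evidence of binding.

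Related genes set these levels in context. Among 8 Otx relatives and Groucho corepressors 7 were detected, with a median level of 22.7 TPM. Crx, the third Otx-family gene and known from photoreceptors and pineal cells, had 5 counts in embryo 1 and is listed at 0 in embryo 2. Tle4 stood at 25.5 and 28.3 TPM. Aes, a short Groucho family member that lacks the repeats of the longer ones, was the highest of the list at 332.17 and 471.26 TPM and was 1.57-fold higher in embryo 2 (1.53 to 1.61). Tle6, named after its values were seen, was 1.54-fold higher in embryo 1 in scaled counts (1.08 to 2.22, from 138 counts), although its TPM was 2.66 and 2.78.

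Of the other 7 Pax genes 4 were detected, with a list median of 1.42 TPM. Pax6, known from forebrain and eye, was the highest at 18.4 and 16.1 TPM beside 19.1 and 12.6 TPM for Pax3. Pax1, Pax4 and Pax9 had 0 counts in both embryos, which allows a level of up to 0.0881 TPM for Pax1, 0.154 for Pax4 and 0.0451 for Pax9 in embryo 1. Of the 4 with at least 100 counts none passed 1.5-fold between the embryos, where 14.2% of all genes did.

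The 7 TALE homeobox partners of Meis were all detected, with a median of 55.5 TPM, the highest of the related lists. Pbx3 was highest by mean, at 120.35 and 109.49 TPM, and Pbx2 was lowest at 10.3 and 10.5. Meis3, the third Meis gene, had 107.8 and 114.76 TPM, above Pbx3 in embryo 2, and exceeded Meis2 by 1.57-fold in embryo 1 and 1.78-fold in embryo 2. None of the 7 passed 1.5-fold between the embryos, where 14.2% of all genes did.

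Of 7 AP-2 relatives and modulators 4 were detected. Tfap2a, a paralog known from neural crest, stood at 9.08 and 8.36 TPM, so that Tfap2b exceeded it 20.9-fold and 23.0-fold. Tfap2c was lowest at 0.17 and 0.11 TPM. Cited2, an AP-2 coactivator, was highest at 55.7 and 54.3 TPM. Kctd15, an inhibitor of AP-2 activity, was measured at 13.7 and 22.3 TPM and was 1.97-fold higher in embryo 2 (1.78 to 2.19).

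In the list of 32 tectum and dorsal midbrain genes 31 were detected, with a median of 14.2 TPM. Tcf7l2, a Wnt pathway factor, was the highest at 607.16 and 555.33 TPM, and Msx2 the lowest at 1.22 and 0.38. In embryo 1, 5 passed 1.5-fold and 1 did so in embryo 2, where 8.56% and 5.65% of all genes passed. The 5 were Wnt1, Msx1, Pou4f1 (1.52-fold), Tal2 (1.72-fold) and Efna5 (1.62-fold), and the 1 was Bhlhe22 (1.52-fold), named after their values were seen. Wnt1, a signal of the midbrain-hindbrain border and the dorsal midline, stood at 3.28 and 1.01 TPM, 2.93-fold higher in embryo 1 (2.08 to 4.21). Msx1, a dorsal midline gene, stood at 10.7 and 4.65 TPM, 2.08-fold higher in embryo 1 (1.73 to 2.52). These 2 were the genes of the list past 2-fold with at least 100 counts. They were higher in the embryo with the higher mesenchymal and choroid plexus markers, whose part in this was not tested.

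The median log2 ratio, embryo 1 over embryo 2, was 0.0029 for the 9 factors, −0.27 for the Otx relatives and Groucho genes, 0.02 for the other Pax genes, −0.20 for the TALE partners, −0.13 for the AP-2 list and −0.05 for the tectal list, against −0.0056 for all genes.

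**Figure D4:**
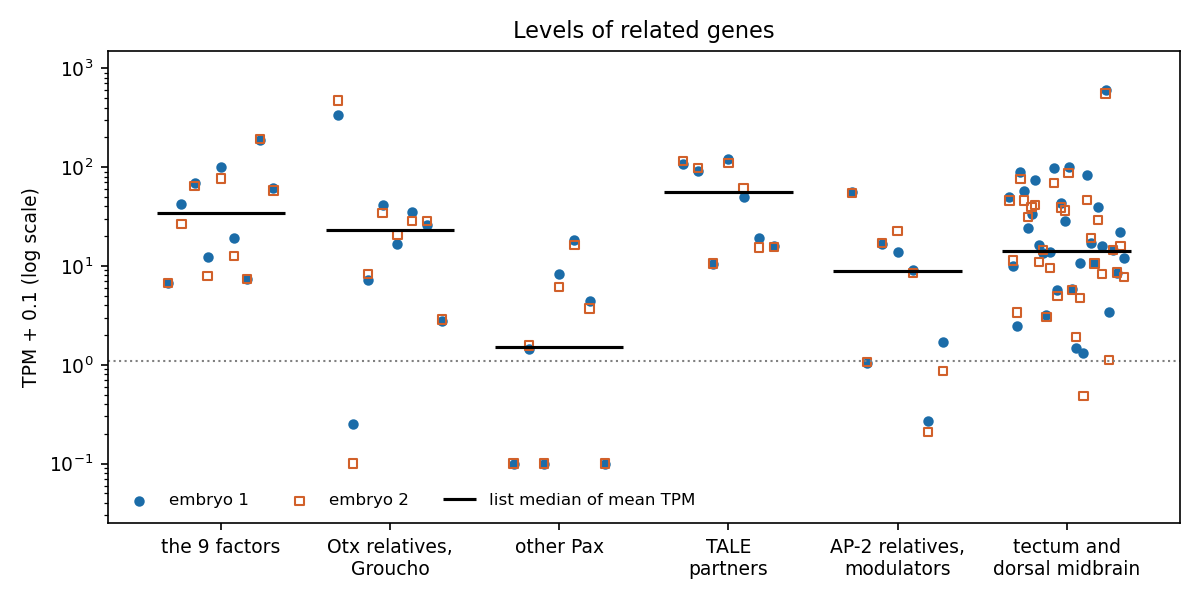
TPM plus 0.1 (log scale) of the 9 factors and of the genes in each related list, with 1 point for each embryo; the bar is the list's median and the dotted line marks 1 TPM. The TALE partners have the highest median, 55.5 TPM, and the other Pax genes the lowest, 1.42 TPM.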

How the data were processed

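Per the labels' protocols, mirVana extraction gave RNA above 200 nt, of which 10 ng with ERCC spike-ins made each of the 2 libraries of 1 group. The gene and transcript tables use the mm10 assembly and GENCODE M4, per the text record that accompanies each sample; no aligner or quantifier is named in the sources used here. The deposited expected counts are the authors' estimates of reads per gene or transcript and need not be whole. TPM and FPKM are the authors' values, per the file headers, and FPKM entered only as an alternative. Symbols and coordinates came from GENCODE M21 on the same assembly and matched 42462 of 43346 gene rows (98.0%). The 26249 rows that were neither Ensembl genes nor spike-ins held 6 and 14 counts and were left out of library sizes.

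From these values, the level of a gene is the deposited TPM, averaged over the embryos with its SD. Counts rounded to whole numbers gave TMM factors (edgeR 4.0.16 in R 4.3.3), and ratios used the unrounded counts with a prior count of 0.5, for genes whose counts summed to 100 or more. The 95% intervals are exact conditional binomial ones and cover counting error alone, not variation between animals. PCR copies of a molecule were not identified, so the intervals may be too narrow even for counting error. A count of 0 was taken to allow up to 3 counts in that library. Transcript shares are shares of a gene's summed transcript TPM, and shares of a segment or exon are over the transcripts that span it. Scaling was checked on simulated data. Alternatives were DESeq2 1.42.0 size factors, total counts, spike-ins, TPM ratios, posterior mean TPM, other minimums and each embryo alone. All 9 members were named; a related gene was named if highest or lowest of its list, past 2-fold, or a partner or paralog of a member. Transcripts were named if leading in both embryos or at 20% of the gene's TPM in either, with Pax7-202 added after its values were seen. Members and lists were chosen with earlier results of these data known.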

Additional observations from a re-analysis of the deposited data

How the results depend on the processing

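All 9 factors stayed detected by posterior mean TPM, by FPKM and at a minimum of 5; a minimum of 0.5 and each embryo alone could lose none by construction. The number past 2-fold stayed at 0 under every scaling tried. The number past 1.5-fold, 0 with TMM, was 1 with the spike-ins and 3 with the ratio of deposited TPM, and both scalings shift the median of all genes. Of 45 log2 ratios of single factors under another scaling or prior count 32 lay within the counting interval, and the other 13 were under the spike-ins or the TPM ratio. The sign was kept in 42 of the 45. The exceptions were Pax7, at 0.01 by the TPM ratio, and Tfap2d, at 0.03 with the spike-ins and 0.08 by the TPM ratio. Relative to the median of all genes under the same scaling these stood at −0.12, −0.08 and −0.05, on the side they had with TMM. Meis2, at 0.0029 with TMM, stood at −0.04 relative to that median under the TPM ratio. Of 9 posterior mean levels 6 lay within 1 SD, and Pax7 (7.09 TPM), Tfap2b (185.71) and Dmbx1 (6.46) did not. Of 9 posterior mean shares of the transcripts with the highest mean share 8 lay within 1 SD, and Otx1-201 at 90.6% did not. With 2 embryos a share that differs widely between them has a large SD and passes easily. Dmbx1-203 moved from 87.0% to 80.3%, and Meis2-206, which led in embryo 1 only, from 17.8% to 15.2%. Levels and shares of each embryo alone are the values in the report and, with 2 embryos, lie within 1 SD of the mean by arithmetic. Leaving out an embryo gives no ratio. No paired analysis was possible because the series holds 1 group. Depth limits the ratios of Dmbx1 and Otx1 most, which had 495 and 645 counts in embryo 1 and 499 and 428 in embryo 2.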
